A study of Homo sapiens with 6 samples.

Results

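Expression of 8 genes of retinoic acid signalling is described across 6 samples of the human embryonic stem cell line H1 with 3 DICER1 genotypes. The set was listed by name as CYP26A1, HOXB1, CRABP1, CRABP2, RARA, RARG, RXRA, RXRB and DHRS3, and 8 of these 9 symbols are among the 16199 genes of the count table. RXRB was not analysed here. CYP26A1 and HOXB1 were put in the set because, in homozygous cells, CYP26A1 was low and HOXB1 was high, so their values in homozygous cells are a description and carry no test. The other 6 genes were listed by symbol, in a set drawn up with earlier results of these data known.

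DICER1 is the enzyme that cuts precursor hairpins into mature microRNAs, and S1344L is an amino acid change at a position that recurs in tumours. The study edited H1 cells with CRISPR-Cas9 and sequenced 2 homozygous S1344L samples, 2 hemizygous S1344L samples and 2 wild-type samples. The labels name no drug, added retinoid or differentiation step in any group, and they do not say what the second allele of hemizygous cells is. Nothing in them says that the samples sharing a genotype came from separate clones or cultures, so a p-value here measures only how these samples spread, and that spread may be technical. Totals ran from 38164848 to 52924532 counts per sample. Levels are given in CPM, counts scaled by library size and composition, and differences as log2 fold changes.

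Retinoic acid is made from vitamin A in the cell by retinol and retinal dehydrogenases, is carried by small binding proteins, and is broken down by CYP26 enzymes. In the nucleus it binds a retinoic acid receptor paired with a retinoid X receptor on response elements in DNA, which are short direct repeats, and corepressors on the receptor are exchanged for coactivators. Among the genes known to respond are CYP26A1 itself and the HOX genes at the 3' ends of their clusters, such as HOXB1, which in embryos pattern the hindbrain. In embryonic stem cells the pathway is best known for driving exit from self-renewal.

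The start-site regions of CYP26A1 and HOXB1 are shown because these genes were chosen for their levels in homozygous samples and the results turn on them. Both are the 200 bases before a RefSeq start site on GRCh38.p14, written 5' to 3' on the strand of the gene. CYP26A1 has another RefSeq window, further upstream, without a match, and the one shown was taken because it holds the motif. It lies inside the GENCODE span of the gene. CYP26A1 lies at chr10:93073693-93073892, plus strand, and its capitals mark a direct repeat with a spacer of 5 bases, named DR5, at bases -90 to -74 from the start. HOXB1 lies at chr17:48531012-48531211, minus strand, and its capitals mark the 8 letters at bases -125 to -118 that match a PBX-HOX motif.
CYP26A1: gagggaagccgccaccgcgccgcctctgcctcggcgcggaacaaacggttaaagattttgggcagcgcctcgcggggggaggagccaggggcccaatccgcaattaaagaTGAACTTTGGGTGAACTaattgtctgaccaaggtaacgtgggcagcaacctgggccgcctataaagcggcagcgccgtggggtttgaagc
HOXB1: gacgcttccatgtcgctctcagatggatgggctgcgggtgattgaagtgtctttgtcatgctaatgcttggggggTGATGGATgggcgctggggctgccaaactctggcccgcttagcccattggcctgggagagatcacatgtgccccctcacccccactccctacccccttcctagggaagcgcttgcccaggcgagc

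The DR5 search asked for a pair of units in the same orientation with a spacer of 5 bases, on both strands. A unit was AGGTCA or its near form AGTTCA, or it was the form GGGTCA or likewise GGTTCA. The CYP26A1 match reads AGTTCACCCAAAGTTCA on the opposite strand, with both repeats spelled AGTTCA. Within the 250 bases before a start site, a DR5 was found in 26 of 35116 RefSeq promoter windows (0.074%) and in 24 of 27305 genes (0.0879%). The upstream CYP26A1 window and the windows of the other 7 genes in the count table held none. Of the 24 genes with a match, 8 are in the count table, namely CYP26A1, ATXN1L, BATF2, CYB5R2, HROB, PANK2, PHF8 and PRSS27. The median homozygous minus wild type log2 fold change of these 8 genes was -0.03, with 4 above 0 and 4 below, against -0.00 over all genes. CYP26A1 is counted among those below 0, where its choice placed it. The PBX-HOX letters searched were TGATNNAT, on both strands, which 6.47% of windows hold. Among the 8 genes the HOXB1 window alone held them, and a match to letters is a description and not a binding site.

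Per kilobase of annotated exon, the genes of the set covered a wide range of levels. CRABP1, which binds retinoic acid in the cytoplasm, was highest with a mean over 6 samples of 221 CPM per kb, and CRABP2, which carries retinoic acid to the receptors, followed at 102 CPM per kb. RARG, retinoic acid receptor gamma, was at 11.2 CPM per kb and DHRS3, which reduces retinal back to retinol, at 5.85 CPM per kb. RARA, retinoic acid receptor alpha, and RXRA, retinoid X receptor alpha, were at 3.98 and 3.75 CPM per kb. The ranges of these 2 receptors over the 6 samples overlapped, so their order is not set. CYP26A1, a cytochrome P450 that oxidises retinoic acid, had a mean of 1.15 CPM per kb, and HOXB1, a homeodomain transcription factor, had a mean of 0.653 CPM per kb. Their ranges also overlapped.

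The order of CYP26A1 and HOXB1 was not the same in every genotype. In homozygous samples CYP26A1 was at 0.489 and 0.265 CPM per kb and HOXB1 at 0.854 and 1.06 CPM per kb. In hemizygous samples CYP26A1 was at 1.80 and 0.466 CPM per kb and HOXB1 at 0.421 and 0.797 CPM per kb. The order thus differed between the hemizygous replicates. In wild-type samples CYP26A1 was at 3.17 and 0.706 CPM per kb and HOXB1 at 0.382 and 0.403 CPM per kb. HOXB1 was above CYP26A1 in both homozygous samples and in hemizygous replicate 2, and below it in hemizygous replicate 1 and in both wild-type samples.

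**Figure D1:**
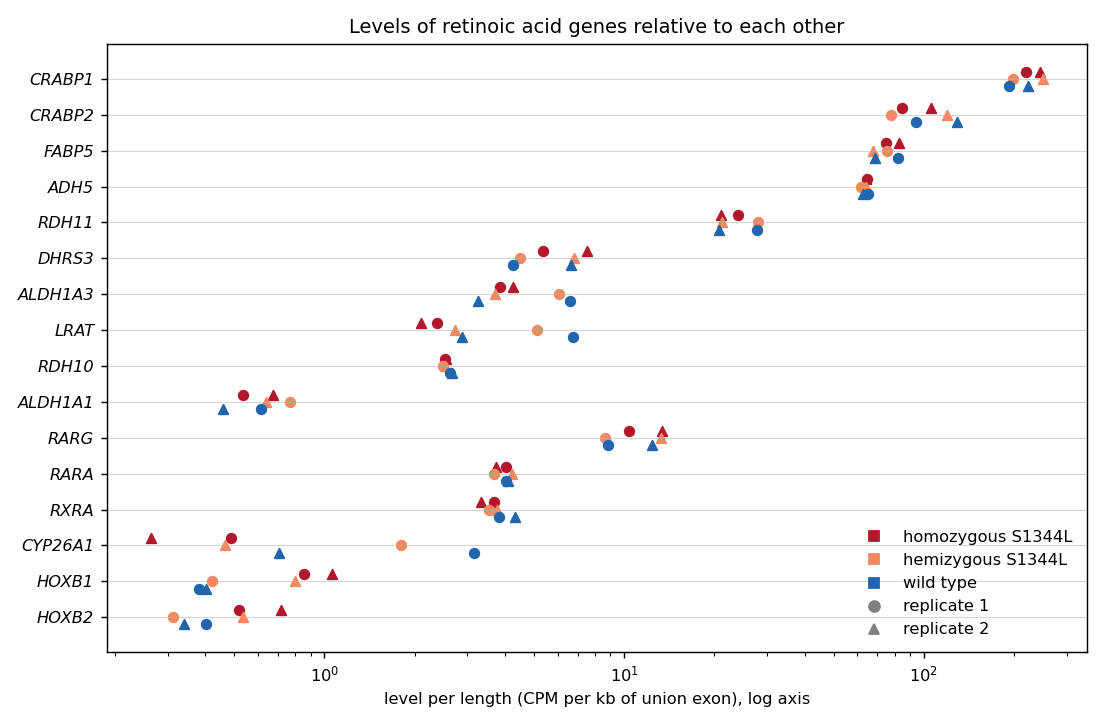
Level of each retinoic acid gene in each sample, in CPM per kilobase of union exon on a log axis; colours mark genotype and symbols mark the replicate number. CRABP1 and CRABP2, with means of 221 and 102 CPM per kb, lie far to the right of CYP26A1 and HOXB1, with means of 1.15 and 0.653 CPM per kb, and the points of CYP26A1 are the most spread.

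CYP26A1 (chr10:93073475-93077890, plus strand, GENCODE on GRCh38) was the gene of the set that varied most between samples, within genotypes as well as between them. It had 1.45 and 0.788 CPM in homozygous replicates 1 and 2, 5.35 and 1.39 CPM in hemizygous replicates 1 and 2, and 9.41 and 2.10 CPM in wild-type replicates 1 and 2. Both homozygous samples were below both wild-type samples, while hemizygous samples overlapped with each of the other genotypes. The means were 1.12 ± 0.471 CPM in homozygous, 3.37 ± 2.80 CPM in hemizygous samples and 5.75 ± 5.17 CPM in wild-type samples (SD, n = 2 each). The counts behind them were 66 and 32 in homozygous, 205 and 73 in hemizygous and 488 and 82 in wild-type samples. Exact Poisson 95% intervals ran from 446 to 533 for wild-type replicate 1 and from 65.2 to 102 for wild-type replicate 2, so the gap between these same-genotype samples was larger than counting error. The intervals of homozygous replicate 1 (1.12 to 1.85 CPM) and wild-type replicate 2 (1.67 to 2.60 CPM) overlapped, and these are the nearest samples of the 2 genotypes. The intervals cover counting error only, since the reads carry no molecular identifiers. Of the annotated exon bases of CYP26A1, 25.2% are shared with a processed transcript on the same strand, which is not analysed here.

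The fitted log2 fold change of CYP26A1 was -2.36 ± 0.88 (SE) in homozygous against wild-type samples. Its size rested on wild-type replicate 1: without that sample the log2 fold change was -0.89, and without wild-type replicate 2 it was -3.05. Compared between samples of the same replicate number, homozygous minus wild type was -2.69 for replicate 1 and -1.41 for replicate 2. Both are below 0, as groups without overlap must be. Homozygous against hemizygous samples gave -1.57 ± 0.88 (SE), which became -0.30 without hemizygous replicate 1. Hemizygous against wild-type samples, a comparison that shares its wild-type samples with the first, gave -0.79 ± 0.83 (SE; edgeR adjusted p = 1.00). That value turned to 0.68 without wild-type replicate 1 and to -2.05 without hemizygous replicate 1. In bulk RNA, fewer cells that express a gene and less of its RNA per cell cannot be told apart.

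HOXB1 (chr17:48528526-48531001, minus strand) was higher in homozygous samples, and its samples agreed within genotype more closely than those of CYP26A1. It had 2.11 and 2.63 CPM in homozygous, 1.04 and 1.97 CPM in hemizygous and 0.945 and 0.998 CPM in wild-type replicates 1 and 2. Every homozygous sample was above every hemizygous sample, and every hemizygous sample was above every wild-type sample, although hemizygous replicate 1 was barely above wild-type replicate 2. In hemizygous against wild-type samples 8.13% of all genes were likewise higher without overlap. The means were 2.37 ± 0.367 CPM in homozygous, 1.51 ± 0.658 CPM in hemizygous samples and 0.971 ± 0.0375 CPM in wild-type samples (SD, n = 2 each). The counts were low, at 96 and 107 in homozygous, 40 and 104 in hemizygous and 49 and 39 in wild-type samples. The intervals for hemizygous replicate 1 (28.6 to 54.5 counts, 0.745 to 1.42 CPM) and wild-type replicate 2 (27.7 to 53.3 counts, 0.709 to 1.36 CPM) overlapped.

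The log2 fold change of HOXB1 was 1.29 ± 0.37 (SE) in homozygous against wild-type samples and lay between 1.12 and 1.44 when any 1 sample was left out. Between samples of the same replicate number it was 1.16 for replicate 1 and 1.40 for replicate 2. As these groups do not overlap, none of these values could have changed sign. Homozygous against hemizygous samples gave 0.64 ± 0.36 (SE), or 1.18 without hemizygous replicate 2 and 0.27 without hemizygous replicate 1. Hemizygous against wild-type samples gave 0.65 ± 0.38 (SE; edgeR adjusted p = 1.00), which became 0.10 without hemizygous replicate 2 and 1.03 without hemizygous replicate 1.

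**Figure D2:**
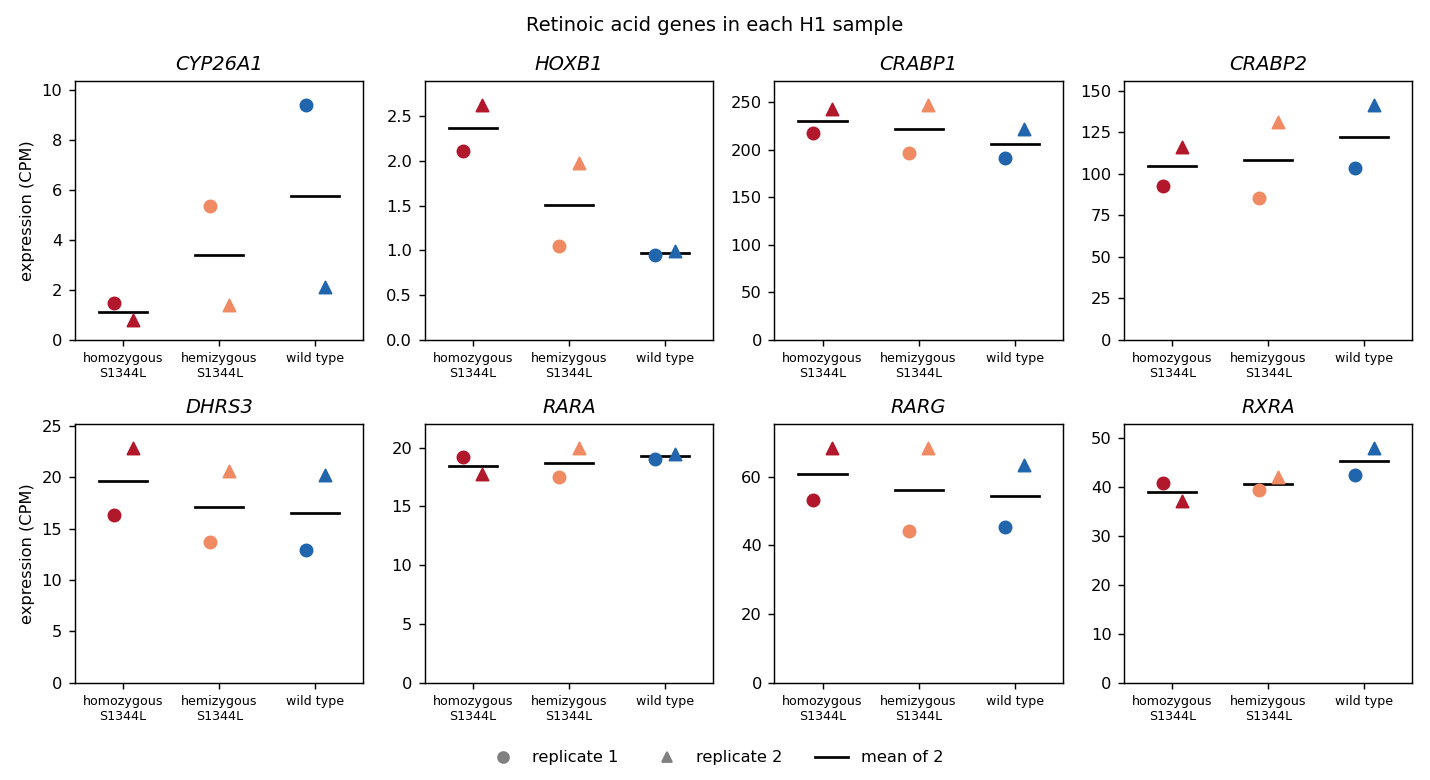
CPM of the 8 genes in each sample, 1 panel a gene with its own axis from 0; circles are replicate 1, triangles replicate 2, and the line is the mean of 2 samples. CYP26A1 is low in both homozygous samples and in replicate 2 of the other genotypes, HOXB1 steps down across homozygous, hemizygous and wild-type means of 2.37, 1.51 and 0.971 CPM, and the other 6 genes keep similar means.

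Neither binding protein passed between genotypes. CRABP1 had 217 and 243 CPM in homozygous, 196 and 248 CPM in hemizygous and 191 and 222 CPM in wild-type samples, and all 3 genotypes overlapped. Its log2 fold change was 0.16 ± 0.17 (SE) in homozygous and 0.11 ± 0.17 (SE) in hemizygous against wild-type samples. CRABP2 had 92.9 and 116 CPM in homozygous, 85.5 and 132 CPM in hemizygous and 103 and 142 CPM in wild-type samples, also overlapping. Its log2 fold change was -0.23 ± 0.26 (SE) in homozygous and -0.17 ± 0.26 (SE) in hemizygous against wild-type samples. For each of these values the edgeR adjusted p was 1.00. Between same-numbered samples the differences were small and of 1 sign. CRABP1 was at 0.19 and 0.13 in homozygous and at 0.04 and 0.16 in hemizygous minus wild-type samples for replicates 1 and 2. CRABP2 was at -0.15 and -0.29 in homozygous and at -0.27 and -0.11 in hemizygous minus wild-type samples. With the replicate block the SE in homozygous against wild-type samples was 0.09 for CRABP1 and 0.10 for CRABP2, and neither passed (edgeR adjusted p = 0.516 and 0.445). The libraries do not record strand, and 47.2% of the annotated exon bases of CRABP1 overlap a transcript of uncertain status on the opposite strand, which is not analysed here.

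Of the receptors, RXRA alone kept its wild-type samples apart from the others. RXRA, the partner of both retinoic acid receptors, had 40.7 and 37.0 CPM in homozygous, 39.3 and 41.9 CPM in hemizygous and 42.4 and 47.9 CPM in wild-type samples. Both homozygous and both hemizygous samples were below both wild-type samples, with log2 fold changes of -0.22 ± 0.14 (SE) and -0.15 ± 0.14 (SE), and neither passed (edgeR adjusted p = 1.00 for each). RARG, the most abundant of the 3 receptors, had 53.4 and 68.5 CPM in homozygous, 44.2 and 68.3 CPM in hemizygous and 45.3 and 63.4 CPM in wild-type samples. These overlapped, and the log2 fold changes against wild type were 0.16 ± 0.27 (SE) in homozygous and 0.05 ± 0.27 (SE) in hemizygous samples. Between same-numbered samples RARG was at 0.24 and 0.11 in homozygous and at -0.04 and 0.11 in hemizygous minus wild-type samples. With the replicate block its SE in homozygous against wild-type samples was 0.10, and it did not pass (edgeR adjusted p = 0.525).

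RARA was the steadiest gene of the set, and 11.8% of its annotated exon bases overlap RARA-AS1 on the opposite strand, which is not analysed here. It had 19.2 and 17.7 CPM in homozygous, 17.5 and 20.0 CPM in hemizygous and 19.0 and 19.4 CPM in wild-type samples, which overlapped. The log2 fold changes were -0.06 ± 0.15 (SE) and -0.04 ± 0.15 (SE) in homozygous and hemizygous against wild-type samples. DHRS3, which retinoic acid is known to induce and which lowers its supply, had 16.3 and 22.9 CPM in homozygous, 13.7 and 20.6 CPM in hemizygous and 12.9 and 20.2 CPM in wild-type samples. The genotypes overlapped, and the log2 fold changes were 0.24 ± 0.31 (SE) in homozygous and 0.05 ± 0.31 (SE) in hemizygous against wild-type samples. Between same-numbered samples DHRS3 was at 0.34 and 0.18 in homozygous and at 0.09 and 0.03 in hemizygous minus wild-type samples. With the replicate block its SE in homozygous against wild-type samples was 0.11, and it did not pass (edgeR adjusted p = 0.418). In each genotype DHRS3 was higher in replicate 2, by more than the means of the genotypes differed. Without the replicate block, the edgeR adjusted p was 1.00 for RARG, RARA and DHRS3 in homozygous and in hemizygous against wild-type samples.

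As a set, 0 of the 6 genes not chosen for their pattern passed in homozygous against wild-type samples by edgeR, which called 0% of all genes. At an unadjusted p under 0.05 edgeR had 0 of these 6, against 2.69% of all genes. The other tools also called 0 of the 6: DESeq2, which called 0.0617% of all genes, and limma-voom, which called 0%. DESeq2 with a block for replicate number also called 0 of the 6, and 0.921% of the 13686 genes to which it gave an adjusted p. In hemizygous against wild-type samples edgeR called 0 of the 8 genes and 0% of all genes, with 0 of the 8 and 0.87% of all genes at an unadjusted p under 0.05. There DESeq2 called 0 of the 8 and 0.0432% of all genes, limma-voom 0 and 0%, and DESeq2 with the block 0 and 0.142%. In homozygous against hemizygous samples edgeR called 0 of the 6 and 0% of all genes, with 0 of the 6 and 0.765% of all genes at an unadjusted p under 0.05. There DESeq2 called 0 of the 6 and 0.0617% of all genes, limma-voom 0 and 0%, and DESeq2 with the block 0 and 0.148%. CYP26A1 and HOXB1 had no overlap between homozygous and wild-type samples, as their choice implies. RXRA was the only one of the other 6 whose groups did not overlap in the comparisons with wild type, lower in both, where 13.6% of all genes were lower without overlap in homozygous and 9.21% in hemizygous samples. In homozygous against hemizygous samples none of the 6 was without overlap, against 21.4% of all genes in either direction. The median log2 fold change of the 6 genes was 0.05 in homozygous and 0.01 in hemizygous against wild-type samples, with -0.00 over all genes in each.

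**Figure D3:**
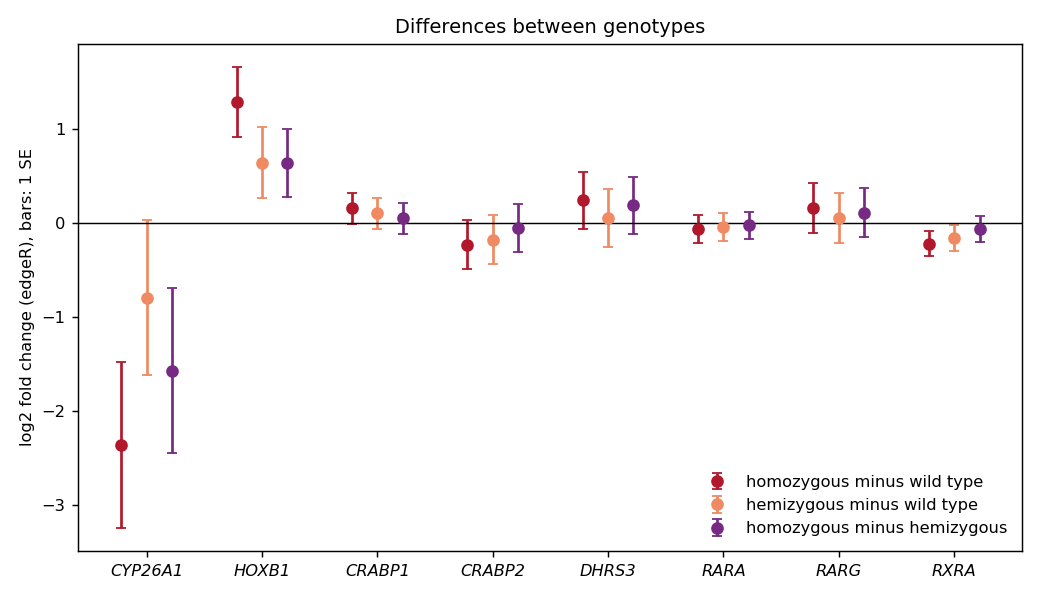
Log2 fold change of the 8 genes in the 3 comparisons, from the edgeR fit with genotype as its only term; bars are 1 SE, and 2 of the comparisons share the wild-type samples and 2 share the homozygous samples. CYP26A1 at -2.36 and HOXB1 at 1.29 stand apart in homozygous minus wild type, as they were chosen to, and the other 6 genes lie between -0.23 and 0.24.

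For 4 of the 8 genes, samples numbered replicate 2 differed from samples numbered replicate 1 by an edgeR test across the 3 genotypes. The labels do not say what the number marks, and this test was added after the data were seen, as the replicate coefficient of the edgeR fit with the number as a block. Over all genes it called 20.5%, so 4 of 8 is read against a large background. The first principal component over all genes (59.1% of the variance) likewise separated wild-type and hemizygous samples by number, with replicate 1 below 0 and replicate 2 above 0 in both. It did not separate the homozygous samples in this way: replicate 1 lay at 3.15 and replicate 2 at 28.5, both on the side of replicate 2. Homozygous replicate 1 also stood apart at 27.8 on the second component (15.1% of the variance). Every homozygous minus wild type difference given here for samples numbered replicate 1 rests on it. CYP26A1 was lower in replicate 2 of each genotype, by 1.85-fold in homozygous, 3.86-fold in hemizygous and 4.49-fold in wild-type samples. Its log2 difference, replicate 2 minus replicate 1, was -1.75 ± 0.26 (SE; edgeR adjusted p = 0.0122). Against this, the median absolute difference over all genes was 0.22. The replicate test of CYP26A1 used the homozygous samples on which the gene was chosen, so it is not independent of that choice.

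The other 3 genes were higher in replicate 2 of all 3 genotypes. DHRS3 differed by 0.58 ± 0.09 (SE; edgeR adjusted p = 0.0131), RARG by 0.49 ± 0.08 (SE; edgeR adjusted p = 0.0148) and CRABP2 by 0.47 ± 0.08 (SE; edgeR adjusted p = 0.0163). CRABP1 and HOXB1 were also higher in replicate 2 of each genotype, by 0.24 and 0.44 on the log2 scale, and did not pass (edgeR adjusted p = 0.0618 and 0.188). RARA and RXRA were mixed in direction. In all, 5 of the 8 genes were higher in replicate 2 of all 3 genotypes and 1 was lower, where 28.3% and 29.9% of all genes were. CYP26A1 and HOXB1 thus differed in opposite directions between replicate numbers, where HOXB1 did not pass, and between homozygous and wild-type samples, where their choice implies it. For HOXB1 both homozygous samples were above all samples of the other genotypes. For CYP26A1 both were below the replicate 1 samples of the other genotypes. Homozygous replicate 1 (1.45 CPM) lay between hemizygous replicate 2 (1.39 CPM) and wild-type replicate 2 (2.10 CPM) for CYP26A1. What the replicate number stands for, and its part in the genotype values, was not tested.

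**Figure D4:**
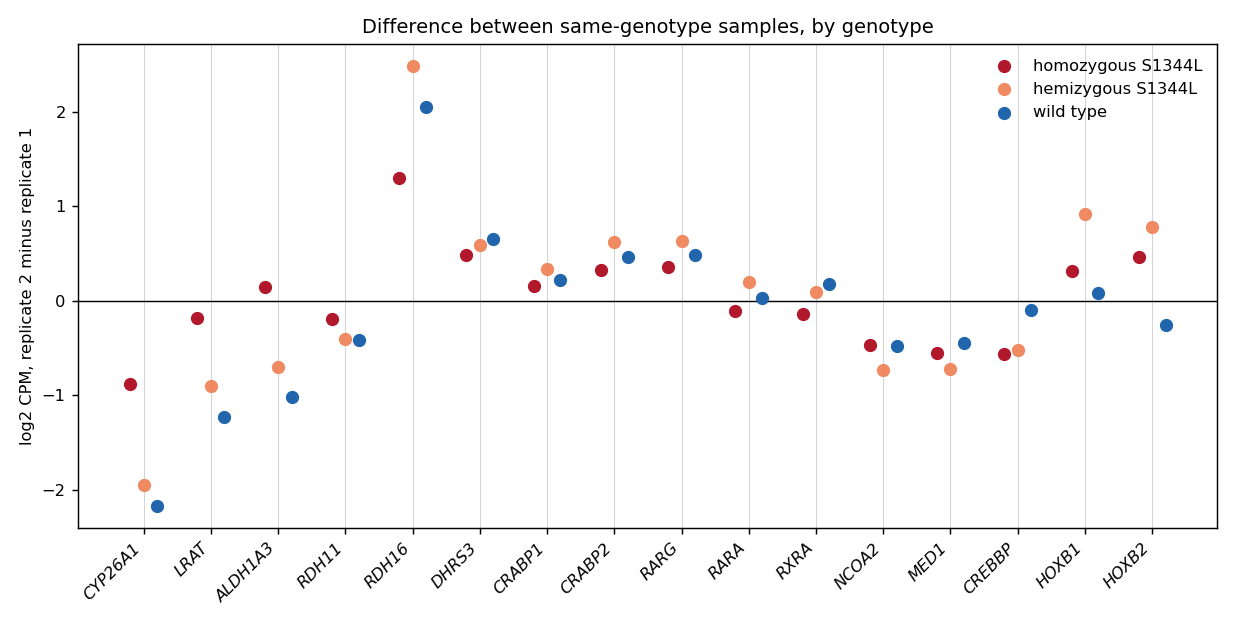
Log2 CPM of replicate 2 minus replicate 1 within each genotype, for the 8 genes of the set and 8 other listed genes; each point is 1 genotype and the line marks no difference. CYP26A1 lies below 0 and DHRS3, CRABP2 and RARG lie above 0 in all 3 genotypes, while RARA and RXRA straddle it.

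A wider list of 71 pathway genes, of which 36 are in the count table, covered supply, breakdown, binding, receptors, cofactors and targets. It was drawn up with earlier results of these data known. Without CYP26A1 and HOXB1, edgeR called 0 of 34 genes in each of the 3 comparisons, and 3 (LRAT, TSHZ1 and TBL1X) had an unadjusted p under 0.05 in homozygous against wild-type samples, where 2.69% of all genes had. In hemizygous against wild-type and homozygous against hemizygous samples 0 of the 34 had, against 0.87% and 0.765% of all genes. DESeq2 called 0 of the 34 in each comparison. In homozygous against wild-type samples, DESeq2 with the replicate block called 1 of the 28 genes for which it gave an adjusted p. Over the whole table it called 0.921% of the 13686 genes with an adjusted p. The median log2 fold change of the 34 genes was -0.05 in homozygous and 0.01 in hemizygous against wild-type samples.

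The supply genes held the 1 call. LRAT, which esterifies retinol for storage, had 18.0 and 15.9 CPM in homozygous, 38.7 and 20.7 CPM in hemizygous and 51.2 and 21.8 CPM in wild-type samples. Both homozygous samples were below all 4 others and, as for CYP26A1, replicate 1 was the high sample in the other 2 genotypes. The log2 fold change in homozygous against wild-type samples was -1.11 ± 0.44 (SE; edgeR adjusted p = 1.00). With the replicate block, the adjusted p was 0.0015 in DESeq2 and 0.329 in edgeR, so the same design gave a call in DESeq2 and none in edgeR. Between same-numbered samples it was -1.51 for replicate 1 and -0.46 for replicate 2. LRAT was lower in replicate 2 by 0.78 on the log2 scale (edgeR adjusted p = 0.0275).

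The other supply genes did not pass in any of these fits between genotypes. RDH10, which oxidises retinol to retinal in embryos, was even across samples, at 13.4 and 13.6 CPM in homozygous, 13.2 and 13.5 CPM in hemizygous and 14.0 and 14.2 CPM in wild-type samples. ALDH1A3, a retinal dehydrogenase that makes retinoic acid, had 22.3 and 24.6 CPM in homozygous, 34.9 and 21.4 CPM in hemizygous and 38.0 and 18.8 CPM in wild-type samples. Its homozygous samples lay within the range of the wild-type samples. RDH16, a retinol dehydrogenase, had 2.91 and 7.14 CPM in homozygous, 1.20 and 6.70 CPM in hemizygous and 1.18 and 4.86 CPM in wild-type samples, and was higher in replicate 2 by 1.91 on the log2 scale (edgeR adjusted p = 0.0120).

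No cofactor of the receptors was called between genotypes by edgeR. Of 12 measured corepressors and coactivators, 9 were below 0 and 3 above in homozygous against wild-type samples, with a median log2 fold change of -0.12, against -0.00 over all genes. In hemizygous against wild-type samples 6 were above 0 and 6 below, with a median of 0.01. Between replicate numbers, 8 of the 12 were lower in replicate 2 of all 3 genotypes, where 29.9% of all genes were. The edgeR test between replicate numbers called 3 of the 12, where it called 20.5% of all genes. These were MED1, a Mediator subunit that contacts nuclear receptors, NCOA2, a steroid receptor coactivator, and CREBBP, a histone acetyltransferase. They were at -0.57, -0.56 and -0.39 (edgeR adjusted p = 0.0122, 0.0126 and 0.0409).

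Of 30 listed target genes, 10 are in the count table, and 4 of these belong to the set. HOXB2, the neighbour of HOXB1 in the HOXB cluster, had 1.21 and 1.67 CPM in homozygous, 0.730 and 1.25 CPM in hemizygous and 0.945 and 0.793 CPM in wild-type samples. Its homozygous samples were above both wild-type samples, and its hemizygous samples overlapped with both other genotypes. The log2 fold change of HOXB2 in homozygous against wild-type samples was 0.72 ± 0.38 (SE; edgeR adjusted p = 1.00). HOXB1 and HOXB2 were the only 2 of 52 listed HOX symbols in the count table, and other HOX genes were not analysed here. The remaining targets gave no call. TSHZ1, a zinc-finger target gene, had 2.64 and 3.03 CPM in homozygous, 3.75 and 2.39 CPM in hemizygous and 5.11 and 4.25 CPM in wild-type samples. Its homozygous and hemizygous samples were all below the wild-type samples, with log2 fold changes of -0.72 ± 0.30 and -0.61 ± 0.30 (SE) that did not pass (edgeR adjusted p = 1.00). TGM2, tissue transglutaminase, had 1.61 and 1.94 CPM in homozygous, 1.38 and 1.80 CPM in hemizygous and 1.20 and 1.20 CPM in wild-type samples. Its homozygous and hemizygous samples were all above the wild-type samples, by 0.56 ± 0.29 and 0.41 ± 0.29 on the log2 scale (SE), and it did not pass (edgeR adjusted p = 1.00). Of the 10 targets, with the chosen CYP26A1 and HOXB1 among them, 4 were higher and 3 lower without overlap in homozygous against wild-type samples. Over all genes 14.2% and 13.6% were. In hemizygous against wild-type samples 2 of the 10 were higher and 1 lower without overlap, where 8.13% and 9.21% of all genes were.

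HOX proteins bind DNA with PBX, MEIS and PKNOX partners, of which 6 of 9 listed are in the count table. The edgeR test called none of the 6 in homozygous or in hemizygous against wild-type samples, and 1, PBX4, had an unadjusted p under 0.05 in homozygous against wild-type samples, where 2.69% of all genes had. PBX4 had 2.71 and 3.35 CPM in homozygous, 2.14 and 2.24 CPM in hemizygous and 2.04 and 1.71 CPM in wild-type samples, so the 3 genotypes did not overlap. Over all genes, 14.2% were higher without overlap in homozygous and 8.13% in hemizygous against wild-type samples. The log2 fold change of PBX4 in homozygous against wild-type samples was 0.68 ± 0.26 (SE; edgeR adjusted p = 1.00). PBX3, the highest of the 3 measured PBX genes per kilobase of exon, had 65.4 and 64.3 CPM in homozygous, 59.5 and 67.0 CPM in hemizygous and 52.6 and 62.1 CPM in wild-type samples. Its hemizygous samples overlapped with both other genotypes, and its log2 fold change in homozygous against wild-type samples was 0.18 ± 0.14 (SE; edgeR adjusted p = 1.00).

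The genes whose profiles over the 6 samples were closest to CYP26A1 were picked for that likeness, so they share its replicate pattern by construction. Closeness was the root mean square difference of log2 CPM values, each gene centred on its own mean, over all genes with a symbol, and it was 0.32 for the closest gene, GNA14, a G protein alpha subunit. GNA14 had 5.64 and 3.30 CPM in homozygous, 13.9 and 4.23 CPM in hemizygous and 23.8 and 4.58 CPM in wild-type samples. Next came PRICKLE1 of planar cell polarity (0.32), the cytoskeletal adaptor SORBS2 (0.38), the LIM homeodomain factor LHX4 (0.39) and the long noncoding RNA MIR4435-2HG (0.40). All 5 had their highest values in wild-type replicate 1 and hemizygous replicate 1.

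For HOXB1 the closest genes were PTPN23-DT, a divergent noncoding transcript (0.11), ZMYND15, a zinc-finger gene (0.15), SAMD11 (0.17), FABP7, the brain fatty acid-binding protein (0.18), and FGR, a Src-family kinase (0.18). PTPN23-DT had 0.727 and 1.16 CPM in homozygous, 0.443 and 0.778 CPM in hemizygous and 0.366 and 0.409 CPM in wild-type samples. FABP7, which is also on the list of neural markers, had 5.62 and 8.15 CPM in homozygous, 4.22 and 5.81 CPM in hemizygous and 2.99 and 2.99 CPM in wild-type samples. These genes were picked from the whole table for their likeness over 6 samples, so their profiles are a description with no test.

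**Figure D5:**
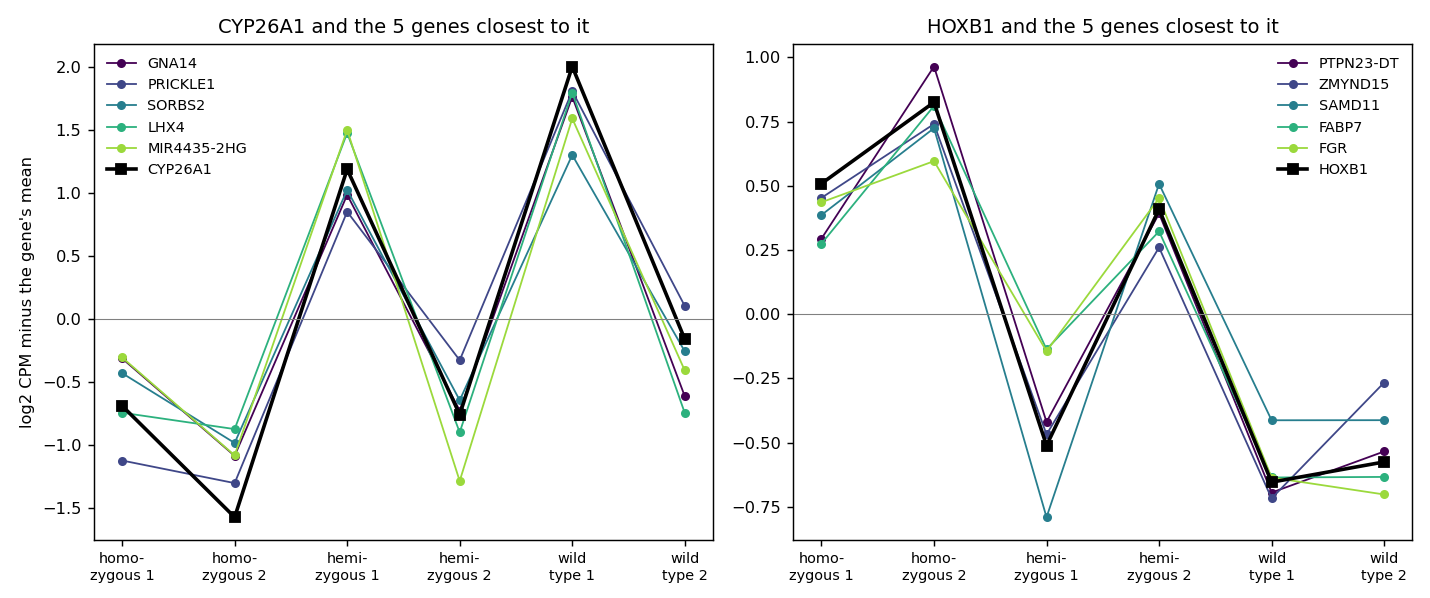
Log2 CPM of CYP26A1 (left) and HOXB1 (right), each with its 5 closest genes, in the 6 samples, each gene minus its own mean. The CYP26A1 group peaks in wild-type replicate 1 and hemizygous replicate 1 and is lower in homozygous samples and in replicate 2 of the other genotypes. The HOXB1 group is highest in homozygous replicate 2. Its homozygous replicate 1 and hemizygous replicate 2 are close together, above hemizygous replicate 1 and the wild-type samples.

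Markers of the cell state were read beside these values. All 8 listed pluripotency markers were measured, and their summed level was 5429 to 5758 CPM in homozygous, 5372 to 5674 CPM in hemizygous and 4899 to 5093 CPM in wild-type samples. Of 11 markers of primitive streak and early mesoderm, 5 were in the count table, with sums of 372 to 387 CPM in homozygous, 341 to 403 CPM in hemizygous and 266 to 284 CPM in wild-type samples. Most of this sum was KDR, a receptor for vascular endothelial growth factor, at 376 and 361 CPM in homozygous, 333 and 393 CPM in hemizygous and 257 and 276 CPM in wild-type samples, and TBXT and EOMES were not analysed here. These sums were higher in homozygous than in wild-type samples, while CYP26A1 was lower. Of 8 neural ectoderm markers, 4 were measured, with sums of 418 to 430 CPM in homozygous, 477 to 574 CPM in hemizygous and 461 to 505 CPM in wild-type samples. NES, an intermediate filament gene of neural progenitors, made up most of this sum, at 386 and 371 CPM in homozygous, 515 and 400.4 CPM in hemizygous and 472 and 429 CPM in wild-type samples. The 4 markers did not move together: in homozygous against wild-type samples NES and OTX2 were at -0.25 and -0.19 on the log2 scale, while ZIC1 was at 0.71 and FABP7 at 1.20. DESeq2 with the replicate block called ZIC1 and FABP7 higher (DESeq2 adjusted p = 0.0144 and 0.0105), and edgeR called none of the 4. The block fit called 0.921% of the 13686 genes with an adjusted p there, and also 1 primitive streak or early mesoderm marker, higher. In hemizygous against wild-type samples all 4 neural markers were above 0, from 0.02 to 1.54 on the log2 scale. There DESeq2 called 1 of the 4 with the block, against 0.142% of all genes, and 1 without it, against 0.0432%. Endoderm markers, 1 of 6 measured, summed to 1.21 to 1.54 CPM in homozygous, 1.06 to 1.96 CPM in hemizygous and 0.895 to 2.16 CPM in wild-type samples. Trophoblast and amnion markers, 1 of 7 measured, summed to 6.34 to 7.73 CPM in homozygous, 8.34 to 10.5 CPM in hemizygous and 7.06 to 9.52 CPM in wild-type samples. The part of these markers in the values of CYP26A1 and HOXB1 was not tested. DICER1 RNA was at 129 and 118 CPM in homozygous, 118 and 96.4 CPM in hemizygous and 169 and 126 CPM in wild-type samples, a level that does not check an amino acid change.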

How the data were processed

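RNA-seq of 6 H1 samples, 2 per genotype, was analysed from the deposited table of raw counts per gene. Per the labels' protocols, total RNA was extracted with Trizol and libraries were made with the TruSeq RNA Library Prep Kit v2, which does not record strand. The submitters' processing notes name cutadapt, HISAT2 and the build hg38 with no versions. The program that made the counts, and its annotation, is not given in the sources used here. Every gene in the deposited counts has more than 0.5 CPM in at least 3 samples, so genes low in most samples are not analysed here, and a gene high in 1 genotype alone could be missing. Totals were 38164848 to 52924532 counts per sample.

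Samples were grouped by the genotype in their titles. The 3 comparisons used the quasi-likelihood test of edgeR 4.0.16 in R 4.3.3 on all 16199 genes and 6 samples, with TMM scaling, genotype as the only term, filterByExpr (which removed 0 genes), 3 residual degrees of freedom and Benjamini-Hochberg adjusted p under 0.05. DESeq2 1.42.0, limma-voom (limma 3.58.1), DESeq2 size factors, no filter, a replicate block and leaving out each sample were the alternatives. The scripts were tested on simulated data. After genotype means were removed, same-numbered samples deviated together (correlations 0.741 for hemizygous and wild type, 0.357 for homozygous and wild type, 0.476 for homozygous and hemizygous), so the numbers from the titles were treated as pairing samples, although no label states their meaning. The edgeR fit with the block left 2 residual degrees of freedom, and its replicate coefficient was added after the data were seen.

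The members and lists were chosen with earlier results of these data known. Named genes were the members, genes of the lists, DICER1 and, for CYP26A1 and HOXB1, the 5 genes of smallest root mean square difference in centred log2(CPM + 0.05); genes with a DR5 were named after the search. No test is given for CYP26A1 and HOXB1 in comparisons with homozygous samples. Exon lengths and positions came from GENCODE release 29 (GRCh38), promoter windows from RefSeq (GRCh38.p14), where all 8 members matched. Plots used matplotlib 3.10.9, and tables pandas 2.3.3 in Python 3.11.15. Values of 1 listed gene are not reported here.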

Additional observations from a re-analysis of the deposited data

How the results depend on the processing

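Depth limited the nearest samples: counting intervals overlapped for CYP26A1 between homozygous replicate 1 and wild-type replicate 2, and for HOXB1 between hemizygous replicate 1 and wild-type replicate 2. The main limits are 2 samples per genotype and a table without genes low in most samples.

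For hemizygous against wild type, where edgeR called 0 genes, DESeq2 called 7, the edgeR fit with the replicate block 1, and DESeq2 with the replicate block 23. For homozygous against wild type, DESeq2 called 10 and DESeq2 with the replicate block 126, against 0 in edgeR. For homozygous against hemizygous, DESeq2 called 10, the edgeR fit with the replicate block 1 and DESeq2 with the replicate block 24, against 0 in edgeR. The causes were not tested. Leaving out 1 sample gave 0 to 2, 0 to 1 and 0 to 3 genes in these comparisons. The members counted were called by none of these settings, so the block changed the call of no counted member. Of the wider list without CYP26A1 and HOXB1 it changed that of LRAT alone, in DESeq2 and not in edgeR. DESeq2 with the replicate block gave HOXB1 no adjusted p in homozygous against wild type.

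Directions turned only where 1 sample was left out. The fits with 1 sample left out held no term for replicate number, so they also left the replicate numbers unbalanced between genotypes. The log2 fold changes then ran, for hemizygous against wild type, from -2.05 to 0.68 for CYP26A1, -0.071 to 0.27 for CRABP1, -0.52 to 0.11 for CRABP2, -0.14 to 0.063 for RARA, -0.30 to 0.34 for RARG and -0.27 to 0.42 for DHRS3. For homozygous against wild type they ran from -0.43 to 0.034 for CRABP2, -0.048 to 0.44 for RARG and -0.036 to 0.62 for DHRS3. For homozygous against hemizygous they ran from -0.10 to 0.23 for CRABP1, -0.33 to 0.29 for CRABP2, -0.11 to 0.079 for RARA, -0.16 to 0.46 for RARG, -0.13 to 0.0055 for RXRA and -0.073 to 0.52 for DHRS3. Between same-numbered samples, homozygous minus wild type kept 1 sign for CRABP2 (-0.15 and -0.29), RARG (0.24 and 0.11) and DHRS3 (0.34 and 0.18). Signs differed for RARA there, and for RARA and RARG in hemizygous minus wild type. They also differed for CRABP1, CRABP2, RARA and RXRA in homozygous minus hemizygous samples. CYP26A1 and HOXB1 kept their direction in both comparisons with homozygous samples, and HOXB1 in hemizygous against wild type too, when any 1 sample was left out. For all of these but CYP26A1 in homozygous against hemizygous samples, the groups do not overlap. Leaving out 1 sample could therefore not turn those directions.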
